A study of Talaromyces verruculosus with 6 samples.

Results

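Among 11326 annotated genes of the filamentous fungus Talaromyces verruculosus, 42 genes with introns drew a smaller part of their reads from outside annotated exons when pectin was present. They were chosen from the measured values themselves. A gene had to have at least 2 annotated exons and at least 100 reads in each library, which 5247 genes met. For each, the share of reads outside exons was the reads counted as intron reads divided by all reads of the gene. The highest share in pectin libraries had to lie below the lowest in control libraries. The mean share had to be at least 12 percentage points lower with pectin, and genes with 50% or more in every library were left out. The drop that defines these genes is therefore a description. Calls of fits over all genes, 1 of them on the share itself, are given below for the members, and since they rest on the same reads and contrast they are descriptions too and support nothing.

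Mycelia of strain TS63-9 were grown in a basic medium from plugs of an agar culture. Pectin, the plant polysaccharide built largely of galacturonic acid, was added at 5 g/L to 3 cultures, and the 3 control cultures had none. Both groups were of the same strain and were harvested after 24 h. Poly-A selected RNA was sequenced as paired reads, and the submitters call the 3 samples of a group biological replicates. The locus tags are not paired with gene names or products, so neither the identity of the mycelium nor the function of any gene could be checked against known markers. Most of the 42 genes are therefore given by contig, position and exon number. In bulk RNA of this kind, fewer cells that express a gene and less of its RNA per cell cannot be told apart.

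Fungal protein-coding genes commonly carry short introns, which the spliceosome removes from the primary transcript before the mature messenger RNA leaves the nucleus. Retention of an intron in the messenger is the form of alternative splicing most often described in fungi. A read that spans an exon-exon junction comes from a spliced molecule. A read in an intron can come, among other sources, from a molecule that still holds it or from another transcript of the same place. It can also come from a gene model that is wrong there. In these files reads outside exons are also listed for genes with a single exon, so the category is wider than introns. Whether reads running past the ends of a gene are included is not given, and the part of a gene's length that is intron is therefore no baseline for the share.

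Libraries held 10320372 to 11393959 reads on exons. Over all genes, reads outside exons made up 15.1 ± 0.808% of gene reads in pectin libraries and 17.8 ± 1.85% in control libraries (SD, n = 3 each). Control 2 had the highest share of any library, at 19.9%, and the other 5 libraries lay between 14.2% and 16.8%. Over the 5247 genes that met the exon and read minimums, the median difference between pectin and control shares was -1.92 percentage points. The share was lower in every pectin library than in every control library in 31.8% of these 5247 genes, and higher in every pectin library in 0.762%. A small drop was thus common.

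Summed over the 42 genes, reads outside exons were 23.9 ± 1.18% of gene reads in pectin libraries and 47.4 ± 2.69% in control libraries (SD, n = 3 each). The median gene of the set had a mean share of 25.6% with pectin and 44.2% in control, against 12.2% and 14.5% over the 5247 genes. The mean control share was above 30% in 36 of 42 members and in 17.7% of the 5247 genes. A drop of 12 points or more needs a control share of at least that size, so the rule itself favours high control shares. The median difference was -15.6 percentage points, and single members ranged from -54.6 to -12.1. Below, members are numbered by the size of their drop, member 1 having the largest.

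**Figure D1:**
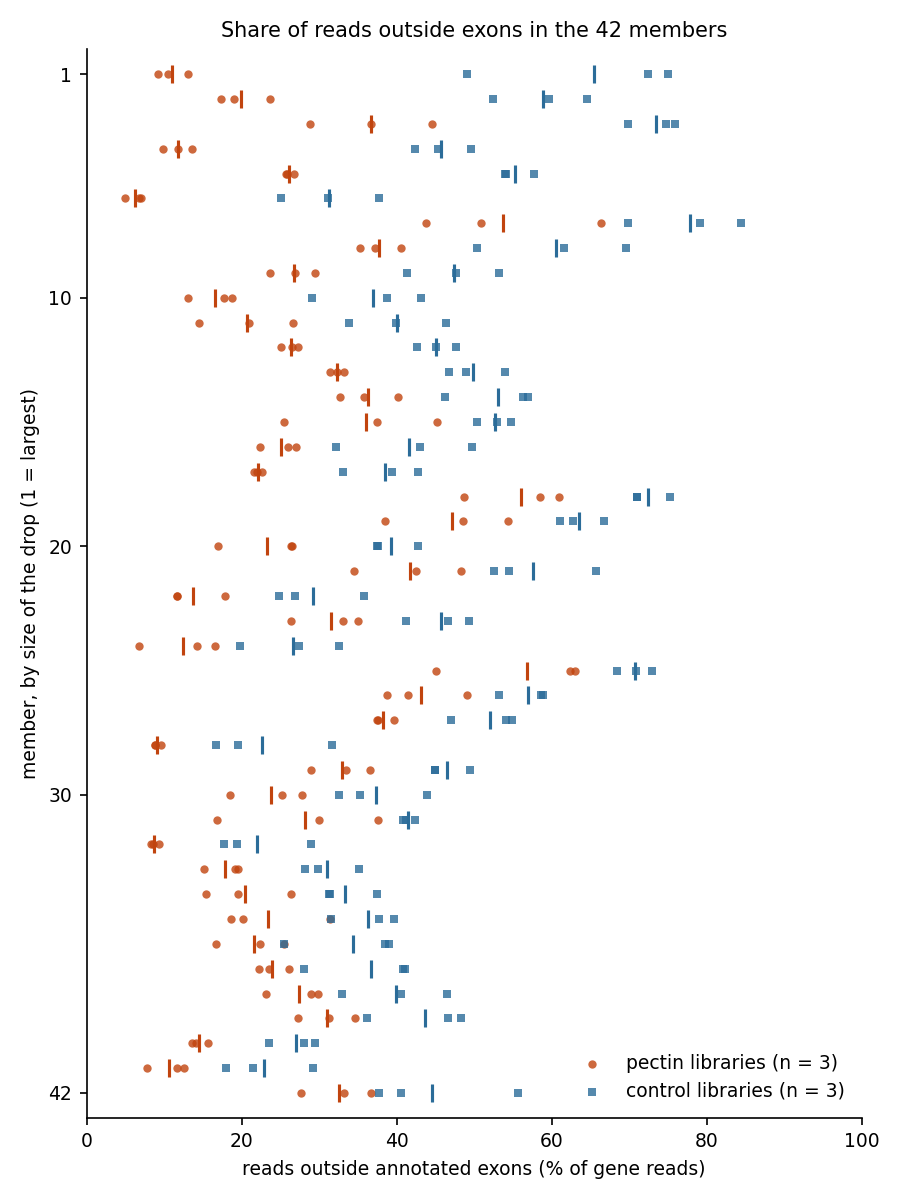
Share of reads outside annotated exons, in percent of gene reads, in the 42 members, ordered from the largest drop at the top to the smallest at the bottom. Circles are the 3 pectin libraries, squares the 3 control libraries and vertical ticks the group means. The groups are separate in every row because the members were chosen that way, and the differences between the means run from -54.6 to -12.1 percentage points.

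The depth behind these shares was modest for many members. The fewest reads of a member in any library were 103, and the 95% Wilson intervals of single shares reached 0.635 to 9.46 percentage points to either side of their middle, with a median of 4.59. These intervals cover counting error only. In 18 of 42 members the lower limits of all 3 control shares lay above the upper limits of all 3 pectin shares. The rule had already chosen the members for groups that lie apart. Intervals are not given for genes outside the set, so nothing is read from this count. The gap between the lowest control and the highest pectin share had a median of 7.03 points and was as small as 0.0357 points. The 3 members nearest the threshold had differences of -12.6, -12.2 and -12.1 points. The 3 genes just outside it, which met the other conditions, had -12, -11.9 and -11.7 points after rounding.

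Member 1, a 4-exon gene on the plus strand at LHCL01000001:137052-138571, had shares of 9.26%, 10.5% and 13.1% in pectin libraries 1 to 3, against 49.1%, 72.4% and 75% in control libraries 1 to 3. Its introns take up 9.61% of its length. The level of its exons, in the deposited RPKM (reads per kilobase and per 1000000 reads), was 91.4, 48.0 and 41.1 with pectin and 6.44, 1.73 and 1.83 in control. Reads outside its exons, per 1000000 exon reads of the library (RPM), were 19.3, 12 and 12.5 with pectin and 13.4, 10.2 and 11.6 in control. Exon levels of the groups were thus far apart, while reads outside exons overlapped between them. Junction reads were 61.1%, 62.3% and 60.9% of its exon reads with pectin, against 45.5%, 30.2% and 31.8% in control. Its annotated neighbours lie 169 and 32 bases away, both on the minus strand. The nearer averaged 2.12 RPKM with pectin and 5.46 RPKM in control, the other 34.2 RPKM with pectin and 4.90 RPKM in control. Their part in the values of member 1 was not tested. Whether the reads were counted by strand is not given, so reads of a gene and of an antisense transcript cannot be told apart in any member.

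Member 2, a 5-exon gene on the plus strand at LHCL01000018:449994-451515, had its groups apart in both kinds of reads. Its exon level was 80.2, 71.6 and 53.2 RPKM in pectin libraries and 22.7, 21.1 and 28.7 RPKM in control libraries. Outside exons it had 25.9, 26.7 and 24.8 RPM with pectin and 66.1, 52.0 and 50.1 RPM in control. All 3 pectin libraries were above every control in exon level and below every control in reads outside exons. The latter alone held in 37.0% of the 5247 genes. The share was 17.3%, 19.0% and 23.6% with pectin, against 64.5%, 59.6% and 52.4% in control. In this gene alone among the 5247, exon reads in RPM were at least 2-fold higher and reads outside exons at least 2-fold lower with pectin, with library sizes as the scale and 0.1 added to each value.

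Member 3, a 4-exon gene on the minus strand at LHCL01000003:208026-209089, also had its groups apart in both kinds of reads. Its share was 28.8%, 36.7% and 44.6% with pectin, against 69.9%, 74.7% and 75.9% in control. Its exon level was 27.1, 17.7 and 15.1 RPKM with pectin and 8.90, 5.93 and 5.22 RPKM in control. Outside exons it had 14.8, 14.2 and 16.1 RPM with pectin and 29.0, 25.6 and 22.8 RPM in control. Lower RPM outside exons in every pectin library was common, at 37.0% of the 5247 genes. Member 12, an 8-exon gene on the same strand at LHCL01000003:211030-212956, lies on the far side of the next annotated gene, which is on the plus strand from 210025 to 210777. Its share was 27.3%, 25.1% and 26.5% with pectin, against 47.7%, 42.6% and 45.1% in control. The gene between them averaged 8.73 RPKM with pectin and 11.9 RPKM in control. No pair of members was directly adjacent. The 42 members lay on 34 contigs, with 4 on LHCL01000003 and at most 2 on any other.

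Member 4, a 5-exon gene on the minus strand at LHCL01000005:513423-514755, had a large difference in exon reads only. Its share was 11.8%, 13.6% and 9.79% with pectin, against 49.6%, 45.3% and 42.4% in control. Its exon level was 61.9, 46.5 and 42.1 RPKM with pectin and 7.26, 7.91 and 5.55 RPKM in control. Reads outside exons were 13.7, 12.4 and 7.36 RPM with pectin and 12.2, 11.6 and 6.88 RPM in control, so these overlapped between the groups. The neighbour 941 bases away on the same strand averaged 874 RPKM with pectin and 7.87 RPKM in control. Its part in the values of member 4 was not tested.

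Member 5, a 3-exon gene on the plus strand at LHCL01000003:358198-359183, had an exon level that overlapped between the groups, at 19.7, 17.3 and 14.1 RPKM with pectin and 21.1, 13.8 and 13.9 RPKM in control. Its reads outside exons did not overlap, at 7.64, 6.93 and 5.63 RPM with pectin against 28.9, 22.7 and 18.8 RPM in control. The share was 25.7%, 25.8% and 26.7% with pectin and 54.0%, 57.7% and 54.1% in control. Junction reads were 65.5%, 62.9% and 60.6% of exon reads with pectin, against 34.3%, 30.3% and 39.2% in control. Exon levels of the groups overlapped in this gene, while junction reads were a larger part of them in every pectin library.

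Member 6, a 3-exon gene on the plus strand at LHCL01000170:75-1888, near the start of its contig, had the lowest mean share with pectin of all 42. Its share was 6.99%, 6.72% and 4.91% with pectin, against 37.7%, 31.1% and 25.1% in control. Its exon level was 112, 128 and 152 RPKM with pectin and 8.48, 8.59 and 15.2 RPKM in control. Reads outside its exons also lay higher with pectin, at 21.7, 24.5 and 19.9 RPM, against 13.8, 10.8 and 13.5 RPM in control. Both kinds of reads were higher with pectin, and the exon reads by far more.

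**Figure D2:**
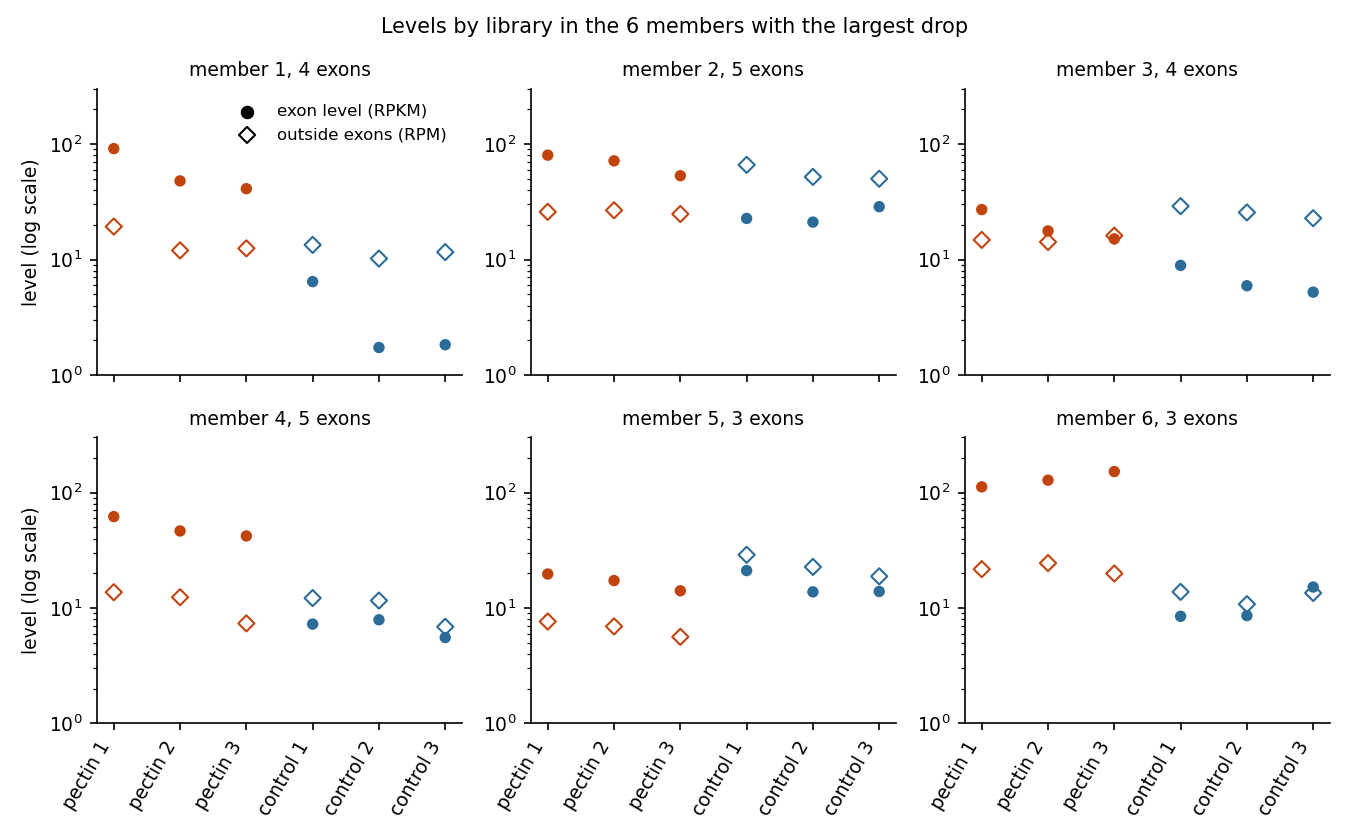
Exon level in RPKM (filled circles) and reads outside exons in RPM (open diamonds) in each library, on a log axis, for the 6 members with the largest drop, with the 3 pectin libraries left of the 3 control libraries in each panel. The filled circles of pectin libraries stand above those of control libraries in members 1 to 4 and 6, and in member 5 it is the diamonds that separate the groups.

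To see which kind of read moved over the whole set, exon reads and reads outside exons were each fitted over all genes with edgeR's quasi-likelihood test. At an adjusted p under 0.05, 21 of 42 members were called higher with pectin in exon reads and 2 lower, where 9.20% of the 9177 genes tested were called higher and 7.00% lower. Reads outside exons were called higher in 6 members and lower in 3, where 5.33% of 8138 genes tested were called higher and 4.74% lower. The members were chosen on these same reads and this contrast, so nothing is read from these counts. The median fitted log2 change of exon reads was 0.76 over the 42 members and -0.01 over all genes tested. For reads outside exons it was -0.08 over the members and -0.02 over all. Scaling reads outside exons with the factors of the exon reads moved these to -0.32 and -0.26, and gave 4 members higher and 6 lower. With library size alone, 5 were higher and 6 lower. Exon reads were called higher in 13 members when pectin 2 was left out and in 13 when control 2 was left out. They were called lower in 1 member without pectin 1 or without control 2, and without pectin 2 in 0 by edgeR, where 2 had an unadjusted p under 0.05. Reads outside exons were called lower in 5 members without control 1 and in 2 without control 2. With replicate number as a block they were called lower in 9. The part of all genes called under these other settings is not given, so nothing is read from these counts either.

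A further fit took the share as the ratio of reads outside exons to exon reads. It tested the interaction of read type and group relative to the shift over whole libraries. The share in this form was called lower with pectin in 19 of the 42 members. Over all 8062 genes tested, 0.732% were called lower and 0.260% higher. The rule chose the members on this same share and contrast, so nothing is read from the count of 19 beside that percentage. Of the 19, 15 were called higher in exon reads. The count was 11 without control 2, and the part of all genes called without that library is not given.

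**Figure D3:**
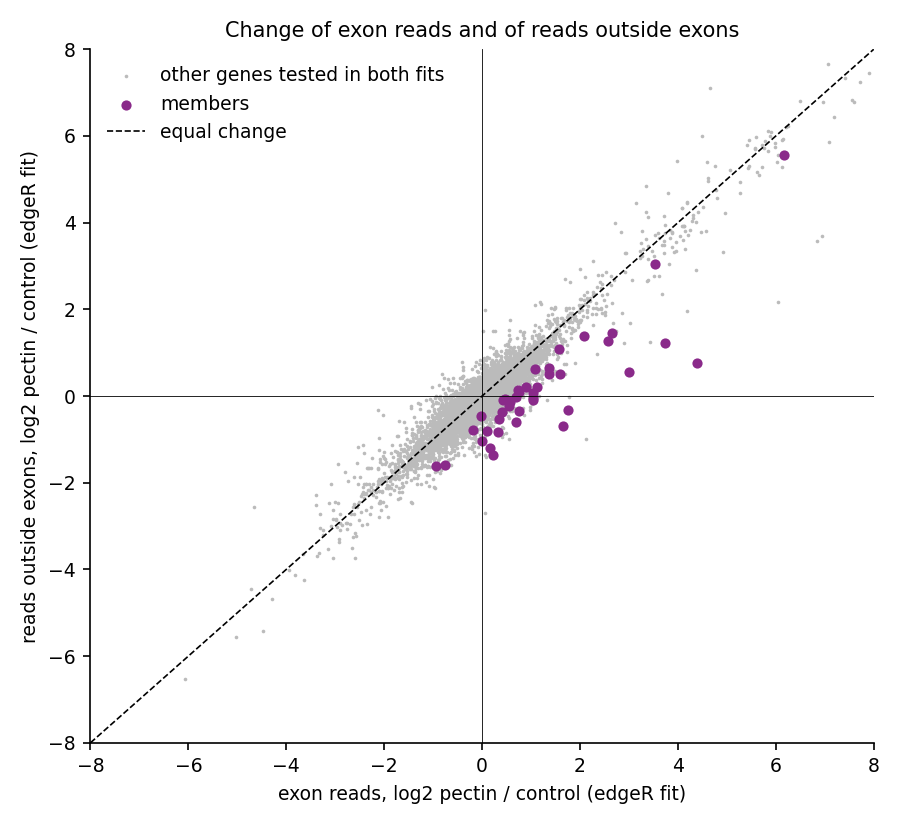
Fitted log2 change, pectin over control, of exon reads (horizontal) and of reads outside exons (vertical) in genes tested in both edgeR fits, with members in purple, other genes in grey and a dashed line of equal change. Other genes with changes beyond the ends of the axes are not drawn. All 42 members lie below the dashed line, which follows from how they were chosen. Their median is 0.76 on the horizontal axis and -0.08 on the vertical axis.

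Counted by library, the exon level in RPKM was higher in every pectin library than in every control in 24 members and lower in 2, where 15.2% of the 5247 genes were higher and 21.2% lower. Reads outside exons in RPM were higher in every pectin library in 6 members and lower in 21, where 3.45% of the 5247 genes were higher and 37.0% lower.

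By the edgeR calls the members fell into 5 classes. In 15 members exon reads were higher with pectin and reads outside exons were not called. Their median exon level was 26.2 RPKM with pectin and 7.72 RPKM in control, beside medians of 11.1 RPM with pectin and 11.7 RPM in control outside exons. Members 1 to 4 belong here, as do member 12 and the 8-exon gene at LHCL01000035:113286-115374. That gene, member 13, had introns over 46.6% of its length. Its share was 32.3%, 33.2% and 31.4% with pectin and 46.7%, 54.0% and 49.0% in control. The gene 337 bases from it averaged 3159 RPKM with pectin and 2495 RPKM in control, and its part in these shares was not tested. Member 22, a gene of 4 short exons at LHCL01000044:137134-137598, averaged 86.4 ± 8.76 RPKM with pectin and 46.7 ± 7.38 RPKM in control (SD, n = 3 each). Its share was 13.7 ± 3.61% with pectin and 29.2 ± 5.85% in control (SD, n = 3 each).

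Of the same class, member 9 was an 8-exon gene at LHCL01000054:45209-47111 with 45.3% of its length in introns and a low level, at 6.05 ± 0.436 RPKM with pectin and 3.31 ± 0.576 RPKM in control (SD, n = 3 each). Its share was 29.5%, 26.9% and 23.7% with pectin and 47.6%, 53.2% and 41.3% in control. Member 21, at LHCL01000030:298191-298516, was the gene with the shortest coding sequence of the set, 267 bases in 2 exons around an intron of 59 bases. Its share was 41.7 ± 6.95% with pectin and 57.6 ± 7.11% in control (SD, n = 3 each), and the highest pectin value, 48.3%, was close to the lowest control value, 52.5%.

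In 6 members both kinds of reads were higher with pectin, with medians of 39.1 RPKM with pectin and 7.54 RPKM in control, and of 17.7 RPM with pectin and 7.85 RPM in control outside exons. ZTR_09553, a 3-exon gene on the minus strand at LHCL01000195:13748-14597 and member 16, had the highest level of the set with pectin. It had 844, 832 and 1091 RPKM with pectin, against 6.11, 6.5 and 29.3 RPKM in control. Outside exons it had 313, 333 and 323 RPM with pectin, against 5.04, 7.30 and 15.0 RPM in control. The share was 26.0%, 27.0% and 22.3% with pectin and 43%, 49.7% and 32.2% in control. Control 3, which had the highest exon level of the controls, also had the lowest share among them. This gene alone held 28.1 ± 1.23% of the members' exon reads with pectin and 1.30 ± 1.15% in control (SD, n = 3 each).

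Member 42, at LHCL01000128:4789-9502, had 11 exons, the most of any member, and the smallest drop. Its level was 21.8, 30.1 and 41.1 RPKM with pectin and 1.98, 2.10 and 4.67 RPKM in control. Its share was 36.7%, 33.2% and 27.6% with pectin and 55.6%, 40.5% and 37.7% in control, so pectin 1 and control 3 were only about a percentage point apart. In each of these genes on LHCL01000128 and LHCL01000195, the adjacent annotated genes also averaged higher with pectin. The next gene was at 113 RPKM with pectin and 2.78 RPKM in control beside ZTR_09553, and at 47.7 RPKM with pectin and 4.65 RPKM in control beside member 42.

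ZTR_09030, at LHCL01000300:3100-4095 on the plus strand with 4 exons and member 33, was called higher in exon reads but not in reads outside exons. Its level was 222, 260 and 552 RPKM with pectin and 36.2, 102 and 122 RPKM in control, a wide spread in both groups. Its reads outside exons were 49.9, 81.2 and 161 RPM with pectin, against 20.3, 75.3 and 61.6 RPM in control, and the groups overlapped. The share was far steadier than the level, at 15.1%, 19.5% and 19.1% with pectin and 29.9%, 35.1% and 28.2% in control. Without ZTR_09553 and ZTR_09030, the other 40 members summed to 2041 ± 60 RPM in exon reads with pectin and 1008 ± 15.2 RPM in control. Their reads outside exons summed to 656 ± 16.7 RPM with pectin and 963 ± 74.8 RPM in control (SD, n = 3 each).

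In 18 members neither kind of read was called. Their median level was 22.8 RPKM with pectin and 17.4 RPKM in control, and their median reads outside exons were 7.21 RPM with pectin and 12.1 RPM in control. Their median share was 25.6% with pectin and 40.0% in control. Member 7, a 4-exon gene on the minus strand at LHCL01000049:152766-154176, had the highest control share of the set. Its share was 43.8%, 66.4% and 50.9% with pectin, against 69.9%, 84.4% and 79.1% in control. Its exon level was alike in both groups, at 4.52, 3.71 and 2.82 RPKM with pectin and 4.50, 3.62 and 2.85 RPKM in control. Its reads outside exons were 6.49, 13.9 and 5.27 RPM with pectin, against 20.1, 39.1 and 20.4 RPM in control. A gene on the opposite strand ends 108 bases from it and averaged 101 RPKM with pectin and 214 RPKM in control. Its part in the reads outside exons of member 7 was not tested.

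Member 29, a 3-exon gene at LHCL01000043:137492-138206, was the most abundant member in control and also belongs to these 18. It had 157, 209 and 252 RPKM with pectin and 97.0, 202 and 195 RPKM in control, with overlap. Its share was 36.6%, 28.9% and 33.5% with pectin, against 49.4%, 44.9% and 45.0% in control, each from at least 1756 reads. Member 14, at LHCL01000043:38464-38989, had a single intron of 58 bases, the lowest total intron length in the set, or 11% of its length. Its share was 32.7%, 35.8% and 40.2% with pectin and 46.2%, 56.3% and 56.9% in control. Member 27, at LHCL01000039:35598-36532, had an intron of 68 bases, and its share was 38.2 ± 1.30% with pectin and 52.0 ± 4.35% in control (SD, n = 3 each). In these genes the share exceeded the intron's part of the length in every library, with and without pectin.

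Member 5 made up a class of its own, with reads outside exons called lower and exon reads not called. That class rests on the threshold of the fit. The fitted log2 changes of member 5 were 0.23 in exon reads and -1.36 outside exons. Those of member 7, where neither was called, were 0.17 and -1.20. In 2 members both kinds of reads were called lower, and reads outside exons by more. ZTR_03986, a 4-exon gene on the minus strand at LHCL01000017:429782-432007, had 8.58, 8.03 and 10.3 RPKM with pectin and 20.7, 19.0 and 18.0 RPKM in control. Its reads outside exons were 20.9, 8.24 and 17.8 RPM with pectin, against 71.2, 72.8 and 55.2 RPM in control. Its share was 45.2%, 25.4% and 37.4% with pectin and 53.0%, 54.7% and 50.4% in control. The SD was 10 points among pectin libraries and 2.17 points among controls (n = 3 each).

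ZTR_10103, a 3-exon gene on the plus strand at LHCL01000077:95211-97889, had 5.80, 5.80 and 7.45 RPKM with pectin and 13.4, 12.1 and 10.2 RPKM in control. Its share was 60.9%, 58.5% and 48.7% with pectin, against 75.3%, 71.0% and 71.0% in control. Almost none of its exon reads crossed an annotated junction, with 1, 0 and 0 junction reads with pectin and 0, 1 and 1 in control. Its gene reads numbered 410 to 1554 per library, and 48.7% to 75.3% of them lay outside exons. Splicing of the annotated introns was thus hardly detectable at this depth in either group. Member 26, a 3-exon gene at LHCL01000107:53663-55829 that was singled out after its values were seen, was alike, with 2, 0 and 0 junction reads with pectin and 0 in each control.

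Junction reads were not used to choose the members, although they are part of the exon reads. Their share of exon reads was higher in every pectin library than in every control library in 21 of 42 members, where 6.38% of the 5247 genes showed this. It was lower in every pectin library in 1 member, where 9.72% of the 5247 genes showed that. That member was member 9. The mean junction share was higher with pectin in 32 of 42 members, or 76.2%, against 46.9% of the 5247 genes. It was at least 5 points higher in 18 members, or 42.9%, against 3.49%. The median junction share was 59.6% with pectin and 47.4% in control over the members, and 32.9% and 32.7% over the 5247 genes. Over all reads of the 5247 genes, junction reads were 40.6 ± 1.15% of exon reads with pectin and 38.9 ± 0.551% in control (SD, n = 3 each). The same contrast and libraries underlie the rule, so these counts describe the set and carry no test.

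**Figure D4:**
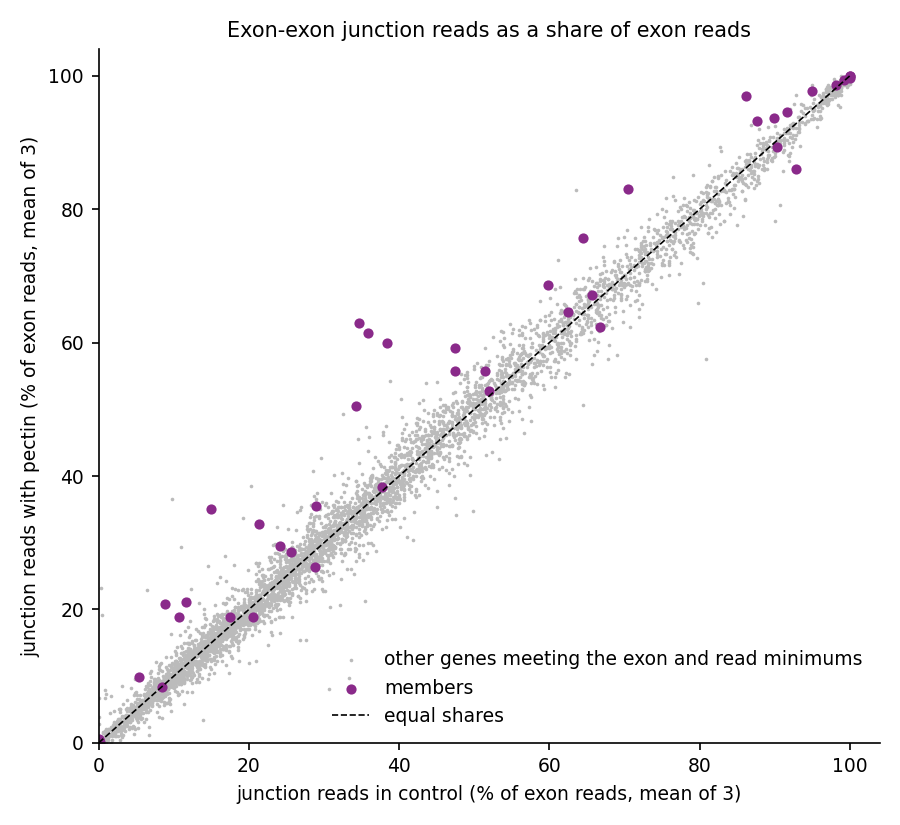
Exon-exon junction reads as a percentage of exon reads, mean of 3 pectin libraries (vertical) against mean of 3 control libraries (horizontal), with members in purple, the other genes with at least 2 exons and 100 reads in each library in grey and a dashed line of equal shares. Of the 42 members, 32 lie above the line, several of them well outside the band of grey points.

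By class, the counts were as follows. Among the 15 members with exon reads called higher and reads outside exons not called, 8 had a higher junction share in every pectin library. Among the 6 with both called higher, 5 did, and among the 18 with neither called, 6 did. The part of all genes with the same calls is not given, so nothing is read from a contrast of the classes. In 12 members, or 28.6%, junction reads made up 85% or more of exon reads in both groups. Of all genes that met the exon and read minimums, 8.52% showed this. This contrast describes the set and carries no test. The median share of reads outside exons of these 12 members was 23.6% with pectin and 36.8% in control. For ZTR_09553 the junction share was 94.7%, 94.4% and 94.7% with pectin and 89.9%, 92.7% and 92.2% in control. For member 9 it ran the other way, at 84.6%, 83.7% and 90.0% with pectin and 90.8%, 96.1% and 91.8% in control.

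The members had a median of 4 exons, against 3 in the 5247 genes, and 11 had at least 6 exons, or 26.2% against 17.7%. They were shorter, with a median coding length of 1034 bases against 1491, and held more intron, with a median total of 216 bases against 161, or 18.5% of the gene's length against 10.3%. Their mean control share exceeded the intron's part of the length in 36 of 42 members, or 85.7%, against 68.7% of the 5247 genes. With pectin it did so in 28 members, or 66.7%, against 61.9%. The rule chose members on these shares, and the intron's part of the length is no baseline, so nothing is read from these counts. The median distance to the nearest annotated gene was 378 bases for members and 491 for the 5247 genes. In 10 members, or 23.8%, an adjacent gene had over 10 times the member's own mean control RPKM, against 8.96% of the 5247 genes. Members were also of lower level in control, with a median of 11.3 RPKM against 29.0 RPKM. The part of neighbours in the shares was not tested.

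The order of libraries within a group was also looked at. The rule does not name it, but the separation of the groups and the minimum drop also limit how far the shares of a group can spread. In 32 of 42 members, or 76.2%, the control library with the highest exon level had the lowest share of the 3 controls, against 47.6% of the 5247 genes. Among pectin libraries this held in 22 members, or 52.4%, against 39.6%. Exon reads are part of the denominator of the share, so the measures are linked by arithmetic. The highest control share was in control 2 in 25 members, or 59.5%, against 71.3% of the 5247 genes, and this was the library with the highest share over all genes. The spread of the share within a group had a median SD of 3.64 points with pectin and 5.79 points in control over the members, and of 1.47 and 1.74 points over the 5247 genes.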

How the data were processed

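Per the file headers, the authors deposited 1 table for each of the 6 libraries, with read counts of every gene (whole gene, exons, introns and reads across exon junctions, each in total and unique), RPKM and the fraction of intron reads. How reads were aligned and counted, and on which build, is not given in the sources used here. In every table the exon count plus the intron count equals the gene's count. The share of reads outside exons was computed from counts and matched the deposited fraction to its rounding. Annotated lengths are 100% multiples of 3, so lengths are coding lengths and untranslated parts of a transcript fall outside annotated exons.

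Exon counts and counts outside exons were each tested over all genes with edgeR 4.0.16 in R 4.3.3 (quasi-likelihood, robust, TMM factors, filterByExpr by group, Benjamini-Hochberg over all genes tested, threshold 0.05). The share was fitted in 1 model over both read types, blocked by library, whose interaction term compares their changes. Each read type had its own library size, and a gene needed 60 or more reads of each type summed over the libraries. All 42 members passed each filter. The fits were also run on simulated counts with the same dispersion for all genes. That setting is simpler than these data, so nothing about the members is read from that run. Alternatives used DESeq2 1.42.0, other scaling, filters and left-out libraries. Levels are deposited RPKM, or reads outside exons per 1000000 exon reads (RPM). Wilson intervals used scipy 1.17.1 and figures matplotlib 3.10.9.

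The members, the rule for named genes and the gene classes were chosen with earlier results of these data known. The rule named the members with the largest drops, levels, exon rises and falls outside exons, the most exons and the lowest total intron length. For want of gene names, at most 2 tags per direction are given. Pairs of libraries within a group gave a chi-square of 33.9 to 135 times its degrees of freedom over genes, so each was counted as a separate sample.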

Additional observations from a re-analysis of the deposited data

How the results depend on the processing

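The median share difference of -15.6 points stayed between -17.0 and -13.8 without any 1 library and between -15.9 and -14.8 with group medians, summed reads or unique reads. The number of members depended on the rule's limits by construction. It was 25 with at least 200 reads, 65 with a difference of at least 0.10, 22 with at least 0.15 and 32 to 62 without 1 library, where 29 of the 42 remained without control 2 and 31 without pectin 1. Against 21 members higher in exon reads, leaving out 1 library gave 13 to 22. Against 2 lower it gave 0 to 2, and 0 were at least 2-fold lower (edgeR; also 0 at an unadjusted p under 0.05 and 0 by DESeq2). The 0 came without pectin 2, where edgeR's unadjusted p was under 0.05 in 2. Reads outside exons were higher in 4 to 6 and lower in 2 to 5 members without 1 library, against 6 and 3. Library size only, DESeq2's Wald test and the factors of the exon reads each gave 6 lower. The share was lower in the interaction fit in 19 members and in 11 to 17 without 1 library. In 11 the fitted ratio of reads outside exons to exon reads was at least 2-fold lower. The cause of these shifts was not tested, and fits with fewer libraries also have less power. For these other settings the part of all genes called is not given, so nothing about the members is read from the counts. Library size only moved the median log2 change of exon reads over all genes to -0.21 from -0.01. A single share rested on as few as 103 reads, which limits it to about 9.46 points either way.

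The replicate numbers are not said to mark pairs. The correlation between pectin and control libraries of the same number, in deviations from their group means, was 0.478, 0.0732 and 0.432 over the genes tested, and 0.562, 0.121 and 0.503 over genes with at least 20 exon reads in every library without TMM factors, which does not settle the question. With the replicate block, exon reads were higher in 22 and lower in 2 members, and reads outside exons higher in 8 and lower in 9. The part of all genes called with the block is not given. The interaction fit already holds each library as a block.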

Other observations

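The opposite change was found in fewer genes. Under the mirrored rule, 3 of the 5247 genes had a share at least 12 percentage points higher, with every pectin library above every control. The rule itself gave 42. Shares were lower with pectin over whole libraries, so the mirrored rule was harder to meet. Relative to that shift, the interaction fit called 0.260% of 8062 genes higher and 0.732% lower. A 4-exon gene at LHCL01000299:2982-4516 had 60.1%, 60.2% and 57.5% with pectin, against 43.4%, 46.0% and 50.9% in control. Its exon level was also higher, with means of 248 RPKM with pectin and 38.1 RPKM in control. How exon level and share are related was not tested. A 4-exon gene at LHCL01000001:727142-728974 had 46.2%, 53.0% and 43.5% with pectin, against 27.5%, 36.6% and 32.5% in control, at exon levels that overlapped. A 5-exon gene at LHCL01000173:21389-24691 had 36.6%, 30.8% and 31.9% with pectin, against 21.7%, 19.6% and 20.5% in control, and its junction share averaged 23.2% with pectin and 0.330% in control.

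The condition that left out genes with 50% or more in every library removed 2 genes that met the other conditions. A 5-exon gene at LHCL01000348:747-2689 had shares of 56.9%, 52.8% and 51.1% with pectin, against 65.7%, 66.4% and 67.6% in control, and its junction share averaged 36.5% with pectin and 9.74% in control. A 3-exon gene at LHCL01000025:24219-24680 had 62.4%, 58.9% and 50.2% with pectin, against 66.9%, 73.1% and 68.2% in control. These 5 genes were named after their values were seen.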
